A study of Mus musculus with 6 samples.

Results

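Fibroblast growth factors (FGFs) are signalling proteins that mostly act between neighbouring cells. Secreted members bind FGF receptor tyrosine kinases together with heparan sulphate on the cell surface, and the signal runs through RAS and the MAP kinases to ETS transcription factors and to feedback inhibitors such as the Sprouty proteins. In the lung, mesenchymal cells make ligands such as Fgf10 and Fgf7 for the epithelium, and Fgf18 is known from alveolar development. The genes described here are 10 members of the family, Fgf1, Fgf2, Fgf5, Fgf7, Fgf9, Fgf10, Fgf11, Fgf16, Fgf18 and Fgf23, of 55487 genes in the deposited table of raw counts. They were chosen by gene symbol from a list drawn up with the counts of these libraries and the difference between the groups already known. The list has no threshold, and the values of its members are therefore a description to which no test is attached. Of the 10, Fgf11 encodes an FGF homologous factor that stays inside the cell, so it is a relative of the ligands rather than a secreted ligand.

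The libraries are polyA-selected RNA of primary lung fibroblasts from wild-type C57BL/6 mice, sequenced in 1 batch. Cells of 3 libraries received recombinant mouse CIRBP (rmCIRBP, 1 µg/mL) for 24 h, and cells of 3 libraries received PBS for 24 h, in both cases after 24 h in 0.1% serum. The growth medium held 10% serum for both groups. CIRBP is a cold-inducible RNA-binding protein that also acts outside the cell as an inflammatory signal. The age and sex of the mice are not given, nor is it said whether replicates came from separate animals or cultures, so the spread between libraries may be technical.

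Levels are given in CPM, a gene's counts divided by the library total and its normalization factor, on a scale of 1e6. Depth was 12105584 to 14262375 counts per library. At that depth the limit behind a count of 0 (3 counts) lay between 0.205 and 0.249 CPM per library, for counting error only. All 10 fibroblast markers examined were measured, at a summed 21199 to 28029 CPM in rmCIRBP and 26289 to 31015 CPM in PBS, although Lum was low at under 3 CPM in every library. Thy1 and Vim passed the test as lower and Dcn as higher after rmCIRBP. Of 10 epithelial markers 1 passed the filter on low counts, with sums of 1.24 to 5.77 CPM in rmCIRBP and 2.19 to 4.84 CPM in PBS, and Krt8 and Nkx2-1 had no count. Of 7 endothelial markers 3 passed, with sums of 5.92 to 8.22 CPM in rmCIRBP and 19.4 to 26.7 CPM in PBS, and Tie1 and Cldn5 had no count. Of 6 mesothelial markers 3 passed, with sums of 3.66 to 6.31 CPM in rmCIRBP and 9.91 to 15.4 CPM in PBS. Of 7 leukocyte markers 4 passed, with sums of 23.4 to 36.0 CPM in rmCIRBP and 18.8 to 22.7 CPM in PBS, and Cd3e had no count. The 8 smooth muscle markers varied within groups, from 1971 CPM in rmCIRBP 3 to 10038 CPM in rmCIRBP 2, and from 2586 to 5310 CPM in PBS. The part of these marker levels in the ligand values was not tested, and in such whole-culture RNA fewer cells of a type cannot be told apart from less RNA per cell.

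The promoters of Fgf18, Fgf5, Fgf7 and Fgf23 are shown because these are the ligands whose groups did not overlap and that the RefSeq promoter table holds; 8 of the 10 genes matched it, and Fgf1 and Fgf16 are only named. Each runs 5′ to 3′ on the strand of the gene (GRCm38.p6, from 250 bases before to 50 bases after the annotated start), and capitals mark the motif matches named after them.
Fgf18, chr11:33147351-33147650, minus strand: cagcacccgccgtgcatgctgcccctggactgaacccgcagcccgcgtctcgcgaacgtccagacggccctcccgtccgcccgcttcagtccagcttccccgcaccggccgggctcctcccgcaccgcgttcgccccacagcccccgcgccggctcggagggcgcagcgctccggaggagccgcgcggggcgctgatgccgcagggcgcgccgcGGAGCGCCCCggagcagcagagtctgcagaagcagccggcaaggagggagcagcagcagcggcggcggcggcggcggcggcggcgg
Fgf5, chr5:98253934-98254233, plus strand: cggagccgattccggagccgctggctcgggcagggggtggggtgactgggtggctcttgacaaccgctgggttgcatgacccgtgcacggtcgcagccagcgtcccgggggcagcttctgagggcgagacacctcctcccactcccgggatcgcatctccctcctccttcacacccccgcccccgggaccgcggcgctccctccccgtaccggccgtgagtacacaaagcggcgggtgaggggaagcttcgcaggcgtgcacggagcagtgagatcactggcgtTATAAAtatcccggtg
Fgf7, chr2:126034408-126034707, plus strand: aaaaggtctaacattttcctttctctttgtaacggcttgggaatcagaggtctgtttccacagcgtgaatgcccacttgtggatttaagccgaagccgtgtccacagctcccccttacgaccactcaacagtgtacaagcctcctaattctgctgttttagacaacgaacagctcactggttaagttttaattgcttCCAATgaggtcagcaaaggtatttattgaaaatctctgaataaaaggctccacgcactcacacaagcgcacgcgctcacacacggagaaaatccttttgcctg
Fgf23, chr6:127072652-127072951, plus strand: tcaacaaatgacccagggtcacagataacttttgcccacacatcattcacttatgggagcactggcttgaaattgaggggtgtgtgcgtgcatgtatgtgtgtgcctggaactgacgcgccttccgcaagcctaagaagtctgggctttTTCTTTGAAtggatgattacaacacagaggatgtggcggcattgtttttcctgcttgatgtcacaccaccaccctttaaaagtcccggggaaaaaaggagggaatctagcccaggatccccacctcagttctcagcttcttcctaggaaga

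The motifs searched on both strands were those for the TATA box, AP-1, STAT, the CCAAT box and NF-kB, with NF-kB given by name and the others by their letters. The Fgf18 window held 1 match to the NF-kB consensus on the reverse strand of the window at bases 215 to 224, which 8.46% of 32851 promoter windows of the same length also held at some place. The Fgf5 window held TATAAA at bases 285 to 290 (in 13.6% of windows), the Fgf7 window held CCAAT at bases 198 to 202 (37.4%), and the Fgf23 window held the STAT-type motif TTCNNNGAA at bases 150 to 158 (8.30%). The Fgf5 match began 34 bases past the annotated start, while the other matches lay before it, so the letters alone do not make it a TATA box. TGANTCA, an AP-1-type motif in 7.81% of windows, matched none of the 4. The windows of Fgf18 and Fgf5, which were lower after rmCIRBP, were 78.7% and 68.3% G or C with 47 and 29 CG pairs. Fgf16, also lower, has no window. The windows of Fgf7 and Fgf23, which were higher, were 45.7% and 49.0% G or C with 11 and 6 CG pairs. Among ligands not called, Fgf2 and Fgf10 had 62.7% and 60.7% with 24 and 10 CG pairs. Fgf9 and Fgf11, also not called, had 42.7% and 52.3% with 12 and 5. Whether composition goes with direction was not tested. The median over all windows was 52.7% and 7 CG pairs. The matches are descriptions of letters, and no binding was measured.

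All 10 genes passed the filter on low counts. Fgf23 passed only through its rmCIRBP libraries, and Fgf5 and Fgf16 only through their PBS libraries, so that a difference was built into their being tested. In the fit across all 15801 genes (edgeR quasi-likelihood test, Benjamini-Hochberg adjusted p under 0.05), Fgf7 and Fgf23 were called higher and Fgf5, Fgf16 and Fgf18 were called lower after rmCIRBP, which is 2 and 3 of the 10. Of all genes tested 6.74% were called higher, 4.77% lower and 11.5% in either direction, with 1065 higher and 753 lower, or 925 and 1022 with upper quartile scaling. The groups did not overlap for these 5 members, nor for 34.6% of all genes. The median log2 fold change of the 10 was 0.01, beside -0.01 for all genes tested. Nothing is read from these counts, because the members were listed with this contrast in view.

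Fgf7 and Fgf10 are closely related ligands made by mesenchyme that signal mainly to the epithelial form of Fgfr2. Fgf7, keratinocyte growth factor (chromosome 2, 126034658 to 126091185, GRCm38, as are all gene positions here), had 234, 186 and 319 CPM in the rmCIRBP libraries 1, 2 and 3, against 104, 113 and 105 CPM in the PBS libraries. Every rmCIRBP library lay above every PBS library, and the rmCIRBP values spread more widely. The summed leukocyte markers were also higher in each rmCIRBP library than in any PBS library, but narrowly, at 23.4 CPM or more against 22.7 CPM or less. Adgre1 was the marker called, at 8.96 ± 3.29 CPM in rmCIRBP and 1.63 ± 0.221 CPM in PBS (SD, n = 3 each). Csf1r was higher without overlap but not called, at 13.3 ± 1.29 CPM in rmCIRBP and 9.85 ± 1.84 CPM in PBS (SD, n = 3 each; edgeR adjusted p = 0.175). Itgam was also higher without overlap, at 0.680 CPM in rmCIRBP and 0.277 CPM in PBS, but was not tested. Ptprc had a higher mean in rmCIRBP, at 2.67 CPM against 1.23 CPM in PBS, with overlapping groups. Cd68 pointed the other way, at 5.35 ± 2.38 CPM in rmCIRBP and 7.09 ± 0.819 CPM in PBS (SD, n = 3 each), and overlapped, as did Cd79a. The part of these markers in the Fgf7 and Fgf23 levels was not tested. The means were 246 ± 67.2 CPM in rmCIRBP and 107 ± 5 CPM in PBS (SD, n = 3 each), with a log2 fold change of 1.20 ± 0.19 (SE), or 0.97 without rmCIRBP 3.

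Fgf10, which directs lung branching (chromosome 13, 118669791 to 118792115), had 84.8, 67.9 and 137 CPM in rmCIRBP and 77.3, 79.6 and 85.8 CPM in PBS. The groups overlapped, with rmCIRBP 3 the highest and rmCIRBP 2 the lowest of the 6, and the log2 fold change was 0.25 ± 0.23 (SE), ranging from -0.08 to 0.46 when 1 library was left out. In TPM, the same kind of level scaled to exon length, Fgf7 stood at 3.91, 3.88 and 3.30 times Fgf10 in the rmCIRBP libraries and at 1.91, 2.02 and 1.74 times in the PBS libraries. Both ligands were highest in rmCIRBP 3.

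Fgf2 and Fgf1 are ligands without a classical secretion signal. Fgf2, basic FGF and a fibroblast mitogen (chromosome 3, 37348346 to 37410108), had 173, 171 and 216 CPM in rmCIRBP and 213, 177 and 206 CPM in PBS. The groups overlapped, at a log2 fold change of -0.09 ± 0.14 (SE). Nudt6 and Fgf2os overlap Fgf2 on the other strand, and the strand setting of the counting is not given in the sources used here, so their reads may not be told apart. Nudt6 was at 34.7 ± 2.75 CPM in rmCIRBP and 37.2 ± 3.82 CPM in PBS (SD, n = 3 each; edgeR adjusted p = 0.627), and Fgf2os at 1.19 ± 0.0813 CPM in rmCIRBP and 1.41 ± 0.406 CPM in PBS (SD, n = 3 each; edgeR adjusted p = 0.676). Fgf1, acidic FGF, was low, with 11, 41 and 23 counts in rmCIRBP and 20, 30 and 25 counts in PBS, which is 0.807, 2.96 and 1.68 CPM in rmCIRBP against 1.66, 2.44 and 1.71 CPM in PBS. Its rmCIRBP libraries held both the highest and the lowest value of the 6. Its log2 fold change was -0.09 ± 0.47 (SE), and its direction turned with the library left out, from -0.63 without rmCIRBP 2 to 0.27 without rmCIRBP 1.

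**Figure D1:**
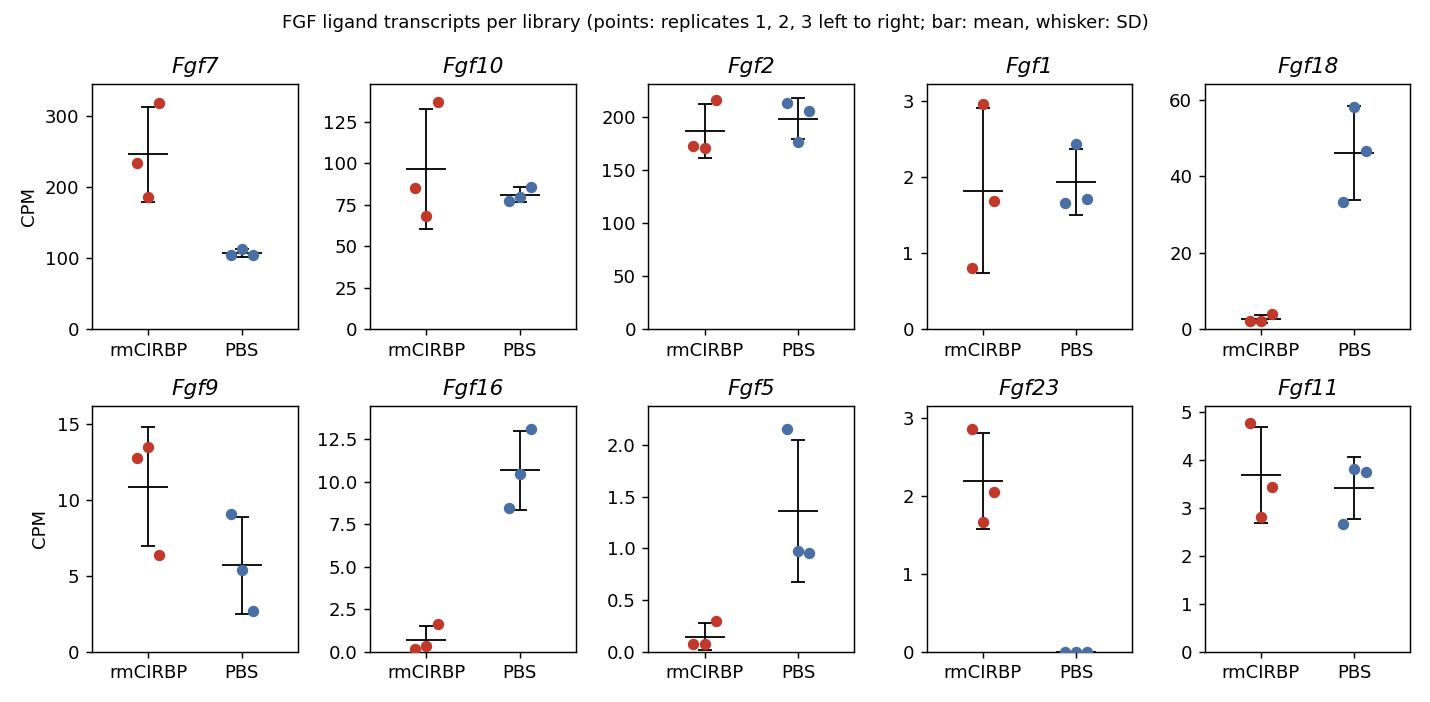
CPM of each FGF ligand in every library, with rmCIRBP on the left (red) and PBS on the right (blue) of each panel; points are replicates 1, 2 and 3 from left to right, the bar is the mean and the whisker the SD, and each panel has its own linear axis from 0. Fgf7 and Fgf23 lie higher in all 3 rmCIRBP libraries, Fgf18, Fgf16 and Fgf5 lie lower in all 3, and the other 5 overlap.

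Fgf18, a ligand of the Fgf8 subfamily that mesenchymal cells make and that prefers the mesenchymal receptor forms (chromosome 11, 33117430 to 33147400), had the most CPM in PBS of the ligands called lower. It had 30, 29 and 54 counts in rmCIRBP and 402, 714 and 683 counts in PBS. In CPM these were 2.20, 2.09 and 3.95 in rmCIRBP, against 33.4, 58.0 and 46.6 in PBS. The highest rmCIRBP library was far under the lowest PBS library, and the rmCIRBP mean was 5.98% of the PBS mean. The log2 fold change was -4.06 ± 0.30 (SE), and lay between -4.41 and -3.85 when 1 library was left out. The summed endothelial and mesothelial markers, lower in each rmCIRBP library than in any PBS library, moved with Fgf18, Fgf16 and Fgf5. The endothelial sum rested mostly on Kdr and Tek. Kdr had 1.24 ± 0.394 CPM in rmCIRBP and 13.9 ± 2.70 CPM in PBS (SD, n = 3 each). Tek had 4.26 ± 0.813 CPM in rmCIRBP and 8.46 ± 0.940 CPM in PBS (SD, n = 3 each). Vwf and Cdh5 pointed the other way, at 0.945 and 0.147 CPM in rmCIRBP and 0.601 and 0.104 CPM in PBS, with overlapping groups. Pecam1 overlapped too, and Tie1 and Cldn5 had no count. Upk3b was the mesothelial marker called. Upk1b was lower without overlap but not called (edgeR adjusted p = 0.0571). Msln and Bnc1 had lower means in rmCIRBP, with overlapping groups. Wt1 and Lrrn4 pointed the other way, at 0.145 and 0.0975 CPM in rmCIRBP and 0.136 and 0.0504 CPM in PBS, with overlapping groups. The part of these markers in the levels of these ligands was not tested. The nearest gene, Npm1, 4887 bases away, was at 378 ± 61.2 CPM in rmCIRBP and 406 ± 15.2 CPM in PBS (SD, n = 3 each; edgeR adjusted p = 0.668).

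Fgf9 and Fgf16 belong to 1 subfamily, with Fgf20. Fgf16 (chromosome X, 105764279 to 105774939), known from heart and brown fat, had 2, 5 and 22 counts in rmCIRBP and 102, 129 and 192 counts in PBS. That is 0.147, 0.361 and 1.61 CPM in rmCIRBP against 8.47, 10.5 and 13.1 CPM in PBS. The groups did not overlap, but rmCIRBP 3 held more than the other 2 rmCIRBP libraries together. The log2 fold change was -3.91 ± 0.60 (SE), and -5.34 without rmCIRBP 3.

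Fgf9, a ligand that lung mesothelium and epithelium send to the mesenchyme (chromosome 14, 58070547 to 58112720), had 12.8, 13.5 and 6.37 CPM in rmCIRBP and 9.05, 5.36 and 2.66 CPM in PBS. The groups overlapped between rmCIRBP 3 and PBS 1. The log2 fold change of 0.94 ± 0.45 (SE) did not pass the threshold in the fit or in any alternative, and it was 0.60 without PBS 3 and 1.46 without PBS 1. Within rmCIRBP, libraries 1, 2 and 3 had summed smooth muscle markers of 4625, 10038 and 1971 CPM, and within PBS 5310, 2586 and 2726 CPM. Fgf9 was thus lowest in rmCIRBP where these markers were lowest, and highest in PBS where they were highest, and their part in its level was not tested. The mesothelial markers did not share an order over the libraries. Msln was at 5.14, 3.03 and 1.68 CPM in rmCIRBP and at 7.39, 3.41 and 5.12 CPM in PBS. Upk3b was at 0.294, 1.73 and 0.878 CPM in rmCIRBP and at 6.14, 4.63 and 3.68 CPM in PBS. Upk1b was at 0.367, 0.144 and 0.586 CPM in rmCIRBP and at 1.41, 0.893 and 2.18 CPM in PBS. Wt1, Lrrn4 and Bnc1 had 0 to 8 counts per library. The part of these markers in the Fgf9 level was not tested.

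Fgf5, a ligand known as a brake on hair growth (chromosome 5, 98254184 to 98277030), was near the limit of detection. It had 1, 1 and 4 counts in rmCIRBP and 26, 12 and 14 counts in PBS, or 0.0734, 0.0722 and 0.293 CPM in rmCIRBP against 2.16, 0.975 and 0.955 CPM in PBS. Pooled over the libraries the ratio of rmCIRBP to PBS was 0.109, with a 95% exact interval from 0.0384 to 0.255 that covers counting error only. The log2 fold change was -3.13 ± 0.67 (SE), -4.05 without rmCIRBP 3, and its call ended without rmCIRBP 1, rmCIRBP 2, PBS 2 or PBS 3. The nearest gene on one side, Prdm8, 65193 bases away, fell to 3.16 ± 0.642 CPM in rmCIRBP, against 8.28 ± 1.12 CPM in PBS (SD, n = 3 each), a log2 fold change of -1.39 with an edgeR adjusted p of 0.00967, or of 0.0507 without rmCIRBP 1.

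Fgf23, a hormone of bone that lowers blood phosphate with the co-receptor Klotho (chromosome 6, 127072902 to 127081408), was detected only in the libraries given rmCIRBP. It had 39, 23 and 28 counts there and 0 counts in each PBS library, which is 2.86, 1.66 and 2.05 CPM. Against the limit of 3 counts over the PBS group, or 0.0769 CPM, its pooled level of 2.19 CPM in rmCIRBP was 28.4-fold higher. This bound takes the rmCIRBP level as measured, without its own counting error or spread. The bound was 17.8-fold without PBS 3, where the same 3 counts are set against fewer reads. Its neighbours were Fgf6, with no count in any library, and Tigar, at 17.0 ± 1.63 CPM in rmCIRBP and 11.6 ± 3.63 CPM in PBS (SD, n = 3 each; edgeR adjusted p = 0.154).

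Fgf11, the intracellular factor (chromosome 11, 69796068 to 69801857), had 4.77, 2.82 and 3.44 CPM in rmCIRBP and 2.66, 3.82 and 3.75 CPM in PBS. The groups overlapped, and the log2 fold change was 0.11 ± 0.29 (SE), or -0.12 without rmCIRBP 1.

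**Figure D2:**
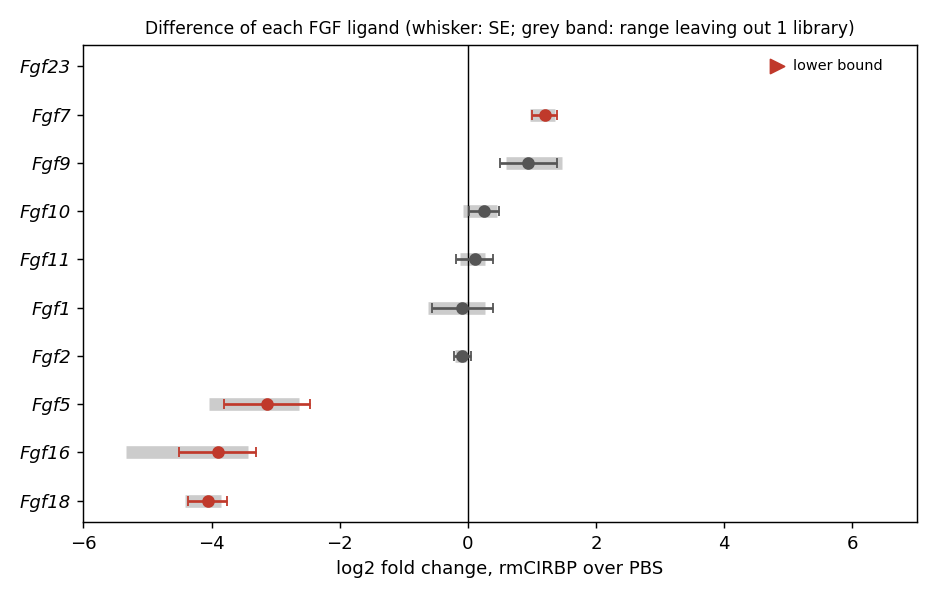
Log2 fold change of each FGF ligand, rmCIRBP over PBS; points are edgeR estimates, whiskers the SE, grey bands the range when 1 library is left out, red marks the genes called in the fit across all genes, and the arrowhead for Fgf23 marks a bound that sets 3 counts in the PBS group as a whole. Fgf18 (-4.06), Fgf16 (-3.91) and Fgf5 (-3.13) lie far to the left, Fgf7 is at 1.20, and the bands of Fgf1, Fgf10 and Fgf11 cross 0.

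Per exon length, 4 genes made up most of the ligand transcripts in PBS and 3 in rmCIRBP. Fgf7 averaged 265 ± 70.1 TPM in rmCIRBP and 119 ± 7.75 TPM in PBS, Fgf2 96.2 ± 12.5 TPM in rmCIRBP and 105 ± 9.01 TPM in PBS, and Fgf10 73.2 ± 26.7 TPM in rmCIRBP and 63.2 ± 5.10 TPM in PBS (SD, n = 3 each). Fgf18 averaged 8.08 ± 3.00 TPM in rmCIRBP and 140 ± 40.1 TPM in PBS, where it was the most abundant ligand of PBS 2 and PBS 3 but came after Fgf7 and Fgf2 in PBS 1. In PBS the order Fgf18, Fgf7, Fgf2 is thus not resolved beyond the spread, whereas Fgf10 was under Fgf7 and Fgf2 in each PBS library. Below these in PBS came Fgf16 at 23.4 ± 5.69 TPM, and then Fgf9, Fgf11, Fgf5 and Fgf1 at 1.27 to 4.35 TPM. In rmCIRBP the order was Fgf7, Fgf2 and Fgf10, then Fgf9 and Fgf18 at 8.20 and 8.08 TPM, which did not differ beyond their spread, then Fgf23 and Fgf11 at 4.22 TPM each, and Fgf16, Fgf1 and Fgf5 at 0.203 to 1.49 TPM.

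The summed TPM of the 10 genes was 434, 368 and 583 in the rmCIRBP libraries and 408, 496 and 481 in the PBS libraries, with overlapping groups. Fgf7 made up 57.1 ± 1.99% of it in rmCIRBP and 25.8 ± 1.31% in PBS, and Fgf18 1.72 ± 0.243% in rmCIRBP and 29.9 ± 5.90% in PBS (SD, n = 3 each). Fgf2 made up 21.2% in rmCIRBP and 23.0% in PBS, and Fgf10 15.6% in rmCIRBP and 13.7% in PBS. Without scaling to length Fgf18 made up 0.489% in rmCIRBP and 10.1% in PBS, Fgf7 44.3% in rmCIRBP and 23.6% in PBS, and Fgf2 34.3% in rmCIRBP and 43.5% in PBS, so that without it Fgf2 had the highest share in PBS. These shares follow from the values of the members and are a description.

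**Figure D3:**
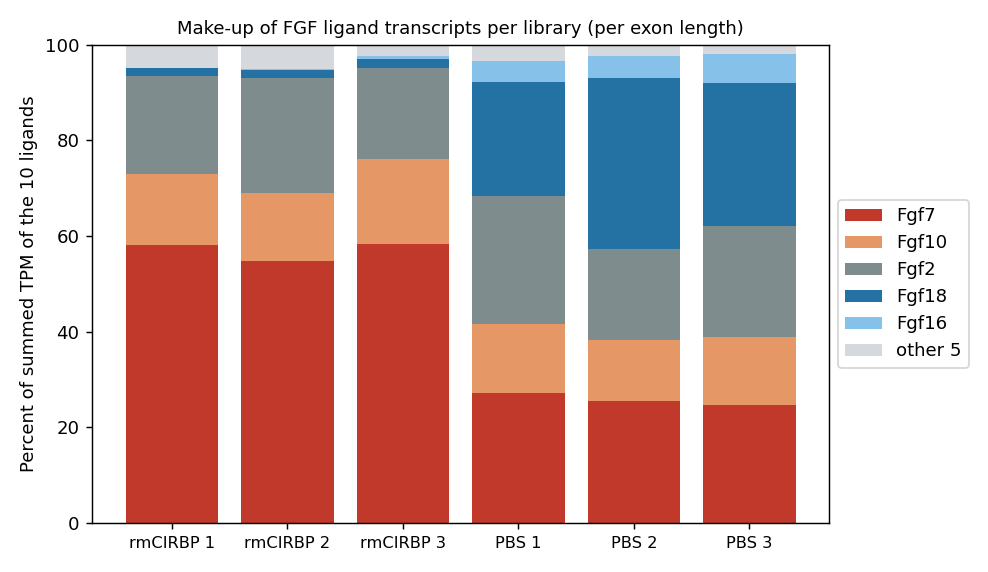
Shares of Fgf7, Fgf10, Fgf2, Fgf18, Fgf16 and the other 5 members together in the summed TPM of the 10 genes, in percent, for each library, with the 3 rmCIRBP libraries on the left and the 3 PBS libraries on the right. Fgf7 (red) fills 54.8 to 58.4% of the rmCIRBP bars and 24.7 to 27.3% of the PBS bars, and Fgf18 (darker blue) 1.5 to 1.98% of the rmCIRBP bars and 23.9 to 35.7% of the PBS bars.

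The other 12 Fgf genes of the mouse were low or not detected. Fgf4, Fgf6 and Fgf15 had 0 counts in all 6 libraries, and Fgf3 and Fgf8 had 0 to 3. Fgf14, an intracellular relative of Fgf11, had 1, 7 and 18 counts in rmCIRBP and 20, 45 and 82 counts in PBS, so that the groups lay just apart. Fgf21, an endocrine ligand like Fgf23, had 0, 4 and 0 counts in rmCIRBP and 12, 7 and 8 in PBS. Fgf12, Fgf13, Fgf17, Fgf20 and Fgf22 had 0 to 29 counts per library, with overlapping groups.

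Among genes of the pathway that are not in the list, and whose lists were written down by name with earlier results on the series known, 9 of 75 tested rose and 2 fell after rmCIRBP. That is 14.7% called, beside 11.5% of all genes, and the 11 called were 6 without rmCIRBP 1, 5 without PBS 2 and 7 without PBS 3. The split between the directions was not stable, with 5 higher and 6 lower without rmCIRBP 3, 6 higher and 5 lower without PBS 1, 8 higher and 5 lower with upper quartile scaling, and 9 higher and 4 lower with library size scaling. Of 9 receptors and helpers 5 were tested, and 1 rose, which is 20% beside 11.5% of all genes. Fgfr1, the main receptor of fibroblasts, had 433, 378 and 482 CPM in rmCIRBP and 390, 498 and 443 CPM in PBS (log2 fold change -0.04 ± 0.14, SE; edgeR adjusted p = 0.874). Fgfr2 had 48.4, 46.5 and 33.4 CPM in rmCIRBP and 23.4, 23.5 and 29.6 CPM in PBS, without overlap. Its log2 fold change of 0.74 ± 0.17 (SE) passed the threshold, with an edgeR adjusted p of 0.0316. The table gives Fgfr2 a span of 2.96 Mb that holds 30 other protein-coding genes, and counts per gene do not separate its epithelial from its mesenchymal form. Its call ended without rmCIRBP 1 (edgeR adjusted p = 0.112), rmCIRBP 2 (0.0600), PBS 1 (0.0664), PBS 2 (0.123) or PBS 3 (0.0506).

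Per exon length, Fgfr1 averaged 152 ± 17.2 TPM in rmCIRBP and 162 ± 23.1 TPM in PBS, and Fgfr2 14.5 ± 2.86 TPM in rmCIRBP and 8.88 ± 1.43 TPM in PBS (SD, n = 3 each). Fgfrl1, a receptor without a kinase domain, was at 56.1 ± 19.1 CPM in rmCIRBP and 61.8 ± 5.72 CPM in PBS (SD, n = 3 each; edgeR adjusted p = 0.720). Fgfr3 had 11, 37 and 0 counts in rmCIRBP and 8, 4 and 13 in PBS (edgeR adjusted p = 0.616), a pseudogene of it is also counted, and Fgfr4 had 0 to 3 counts per library. Kl, which encodes Klotho, the co-receptor of Fgf23, had 0, 1 and 0 counts in rmCIRBP and 0, 1 and 0 in PBS, and Klb had 0 to 2. The binding protein Fgfbp3 was at 2.85 ± 0.400 CPM in rmCIRBP and 3.81 ± 0.230 CPM in PBS (SD, n = 3 each; edgeR adjusted p = 0.288), and Fgfbp1 had no count.

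Of 25 genes of heparan sulphate, the sugar chain that holds FGFs at their receptors, 23 were tested, 3 rose and 1 fell. That is 17.4% called, beside 11.5% of all genes. Sdc4, syndecan 4, a heparan sulphate carrier, had 296, 297 and 282 CPM in rmCIRBP and 91.7, 67.7 and 65.3 CPM in PBS (log2 fold change 1.96 ± 0.15, SE; edgeR adjusted p = 0.000295). Hs6st1, an enzyme that adds 6-O sulphate to the chain, had 59.7, 65.3 and 73.6 CPM in rmCIRBP and 167, 183 and 156 CPM in PBS (log2 fold change -1.35 ± 0.12, SE; edgeR adjusted p = 0.000614). Neither call ended when any 1 library was left out. Sdc3, syndecan 3 (log2 fold change 0.55; edgeR adjusted p = 0.0308), and Hpse, heparanase, which cuts the chains (0.87; edgeR adjusted p = 0.0470), also rose. The call of Sdc3 ended without any 1 library except PBS 3, with edgeR adjusted p from 0.05004 to 0.123, and that of Hpse without any 1 library except PBS 1 (0.0687 to 0.151) and with upper quartile scaling (0.0546). The most abundant of the list, Hspg2, perlecan, and Sulf1, which removes 6-O sulphate, did not pass (edgeR adjusted p = 0.285 and 0.235).

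Of 24 signal transducers from the receptor adaptor Frs2 to the MAP kinases, all were tested and 0 passed in edgeR, beside 11.5% of all genes. DESeq2 called 1 and limma voom 0 of them, beside 2618 and 1738 of all 15801 genes. At an unadjusted edgeR p under 0.05 there were 5, and the share of all genes at that p was not counted, so nothing is read from it. The most abundant, Stat3 and Akt1, had edgeR adjusted p = 0.648 and 0.783. Of 24 targets and feedback genes 23 were tested, 5 rose and 1 fell. That is 26.1% called, beside 11.5% of all genes, of which 6.74% were called higher and 4.77% lower. Spry1, a Sprouty inhibitor of receptor signalling, had 37.7, 60.1 and 58.6 CPM in rmCIRBP and 123, 164 and 110 CPM in PBS (log2 fold change -1.34 ± 0.22, SE; edgeR adjusted p = 0.00785). The other feedback genes and ETS factors of the list, named after their values were seen, did not pass and pointed both ways. Spry2 and Spry4 had log2 fold changes of 0.51 and 0.74, Spred1, Spred2 and Spred3 of 0.29, 0.23 and -0.17, and Il17rd, an inhibitor of FGF receptor signalling, of -0.80 (edgeR adjusted p = 0.0566). The MAP kinase phosphatases Dusp4, Dusp5, Dusp6 and Dusp7 had log2 fold changes of 0.65, -0.58, 0.43 and 0.17, and the ETS factors Etv1, Etv4 and Etv5 of 0.08, 0.69 and 0.56.

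The 5 that rose were Ier3, Fosl1, Myc, Flrt3 and Phlda1, of which Ier3, Fosl1 and Myc are known as genes that many signals induce. Ier3 had 118, 91.6 and 151 CPM in rmCIRBP and 32.4, 23.6 and 28.2 CPM in PBS (log2 fold change 2.10 ± 0.20, SE; edgeR adjusted p = 0.000864). Fosl1, an AP-1 subunit, had 9.62, 17.3 and 16.5 CPM in rmCIRBP and 3.49, 2.76 and 3.28 CPM in PBS (log2 fold change 2.19 ± 0.27, SE; edgeR adjusted p = 0.00253). Myc rose by 1.42, Flrt3, a membrane protein that binds FGF receptors, by 1.94 and Phlda1 by 0.75 on the log2 scale (edgeR adjusted p = 0.0224, 0.0386 and 0.0394). The call of Myc ended without PBS 2 (edgeR adjusted p = 0.0908) or PBS 3 (0.0729), and those of Flrt3 and Phlda1 ended without any 1 library except rmCIRBP 2, with edgeR adjusted p from 0.0503 to 0.133, and that of Flrt3 also with limma voom (0.0589). Egr1 and Fos, immediate-early genes and the most abundant of the list, were low in rmCIRBP 2, with 764, 179 and 761 CPM for Egr1 and 592, 56.6 and 467 CPM for Fos in rmCIRBP. In PBS Egr1 had 514, 628 and 732 CPM and Fos 368, 387 and 536 CPM (edgeR adjusted p = 0.875 and 0.864).

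**Figure D4:**
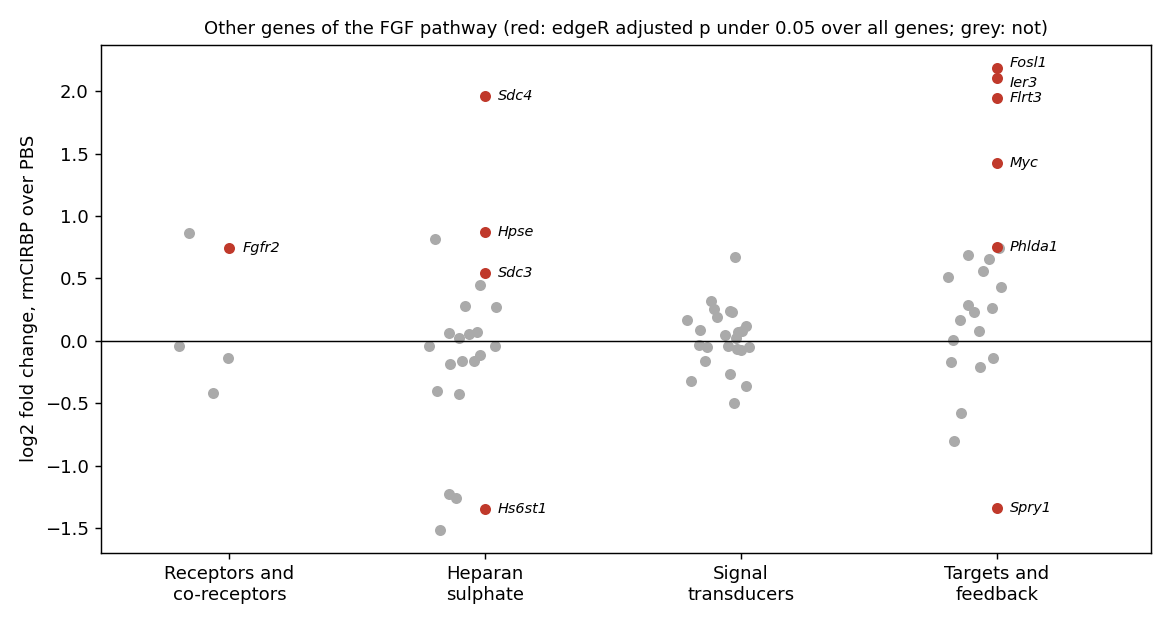
Log2 fold change, rmCIRBP over PBS, of the tested genes of 4 lists of the FGF pathway that are not among the ligands described; each point is a gene, red where edgeR's adjusted p over all genes was under 0.05 and grey otherwise. Sdc4, Ier3 and Fosl1 stand near 2, Hs6st1 and Spry1 near -1.35, and no transducer is red.

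Of the 20 protein-coding genes next to the 10 members 14 were tested, 1 rose and 1 fell, which is 14.3% beside 11.5% of all genes. Besides Prdm8 this was Dtwd1, 60956 bases from Fgf7, at 13.99 ± 2.85 CPM in rmCIRBP and 8.04 ± 1.14 CPM in PBS (SD, n = 3 each), a log2 fold change of 0.80 with an edgeR adjusted p of 0.0448. Its call ended with limma voom (0.0547), with library size (0.0545) or upper quartile scaling (0.0575) and without any 1 library except rmCIRBP 2, with edgeR adjusted p from 0.0782 to 0.152. Genes on the other strand overlapped 5 members. Gm16263 overlaps Fgf10 and was at 7.42 ± 1.94 CPM in rmCIRBP and 6.82 ± 1.40 CPM in PBS (SD, n = 3 each; edgeR adjusted p = 0.803), while Fam227b across Fgf7 had 2 to 10 counts per library, Gm17109 across Fgf9 had 0 to 2, Gm5820 across Fgf1 had 0 to 11 and Gm42923 across Fgf2 had 1 to 8. Gm43439, on the strand of Fgf2, and an entry of Arhgap26 across Fgf1 had no count. No gene in the table overlaps Fgf5, Fgf11, Fgf16, Fgf18 or Fgf23.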

How the data were processed

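RNA of 3 rmCIRBP and 3 PBS libraries was sequenced, and the deposited table holds whole-number counts for each gene, made by the authors (55487 genes, 12105584 to 14262375 counts per library). Per the submitters' processing notes, featureCounts, DESeq2 and R 4.1.2 were used with GRCm38. For the aligner and the strand setting, nothing is stated in the labels. From the deposited counts, the main comparison was edgeR 4.0.16's quasi-likelihood test in R 4.3.3 (filterByExpr, TMM, no replicate block), with Benjamini-Hochberg adjustment over the 15801 genes kept. DESeq2 1.42.0, limma 3.58.1 voom, other scalings and filters, a replicate block and leaving out each library were the alternatives. CPM used effective library sizes and TPM used summed exon lengths of the annotation, so multi-isoform genes are approximate. SE is the log2 fold change divided by the square root of F. The scripts were tested on simulated data. No pair of libraries was identical within sampling noise. Promoters are RefSeq's (GRCm38.p6).

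The members and the gene lists were chosen with earlier results of these data known. The genes named were all members, every other Fgf gene by its counts, the receptors and co-receptors, the called genes (up to 6, by p) and the 2 most abundant of each other list, and genes overlapping a member. Neighbouring genes, binding proteins and the readouts said to be so were named after their values were seen. Intervals and limits cover counting error only.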

Additional observations from a re-analysis of the deposited data

How the results depend on the processing

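The members called numbered 5, and 4 to 5 when 1 library was left out, where Fgf5 was the call that ended. This count is a description, since the members were listed with this contrast known and Fgf5, Fgf16 and Fgf23 entered the fit through 1 group. Over all genes 1818 were called, 723 (without PBS 2) to 2144 (without PBS 1) when 1 library was left out, among them 742 without rmCIRBP 1 and 863 without PBS 3, 1258 with the replicate block, 608 at an adjusted p under 0.01 and 3066 under 0.1. Of the other pathway genes 11 were called, 5 to 11 without 1 library, 17 with no filter, 17 with DESeq2, 7 with the replicate block, 5 under 0.01 and 18 under 0.1. The replicate block ended the call of Fgf5. It also ended those of Fgfr2, Sdc3, Hpse, Flrt3, Phlda1 and the neighbour Dtwd1, with edgeR adjusted p from 0.0653 to 0.100. Deviations of libraries with the same number correlated at -0.146, -0.209 and 0.284, and those with different numbers at -0.385 to 0.417. With 3 libraries per group this does not settle whether the numbers pair the samples. Without 1 library the log2 fold change changed sign in 9 of the genes followed through the alternatives, none of them called, ranging from -0.63 to 0.27 for Fgf1, -0.081 to 0.46 for Fgf10, -0.12 to 0.27 for Fgf11, -0.13 (without rmCIRBP 3) to 0.057 (without PBS 2) for Fgfr1, -0.64 (without rmCIRBP 2) to 1.45 for Fgfr3, -0.44 to 0.048 (without rmCIRBP 2) for Fgfrl1, -0.41 to 0.29 (without rmCIRBP 2) for Egr1, -0.71 to 0.30 (without rmCIRBP 2) for Fos, and -0.081 (without rmCIRBP 3) to 0.30 for Gm16263. With limma voom Fgfr3 was at -0.52. In all these the cause was not tested. Fgf5, Fgf16, Fgf1 and Fgf23 rest on 41 counts or fewer in each rmCIRBP library, so depth limits their values.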
